A study of Mus musculus with 8 samples.

Results

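The interferon response genes examined here are 47 mouse genes chosen by symbol, out of 23293 in the expression table, and all 47 are listed in it. They were measured by sequencing of polyadenylated RNA from bone marrow cells of single mice, selected on magnetic beads for c-Kit, the stem cell factor receptor that marks haematopoietic stem and progenitor cells. Smc3 is a core subunit of cohesin, a ring of proteins that encircles DNA, pairs replicated chromosomes and folds chromatin. There were 8 libraries, 2 in each of 4 groups. Controls were Smc3 fl/+ mice, which have a floxed allele of Smc3 and no Mx1-cre. Smc3 del/+ mice had Mx1-cre and a single floxed Smc3 allele. Flt3-ITD mice had Mx1-cre and the internal tandem duplication of the receptor kinase gene Flt3, a frequent lesion in acute myeloid leukaemia. The combined group had Mx1-cre, Flt3-ITD and floxed Smc3, and is called "both lesions" beside its values; its genotype is given as Smc3 fl/del in one field and as Smc3het in the title. Every mouse, controls included, had received PIpC 4 weeks before the marrow was taken. Age, sex and strain are not in the labels.

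Interferons bind receptors at the cell surface, and receptor-bound kinases then activate Stat proteins. Type I interferons act through a complex that includes Stat2 and Irf9 and binds the interferon-stimulated response element, and interferon gamma acts on the gamma-activated site. The genes switched on sense foreign nucleic acids, block viral replication and present antigen, and in the marrow interferons are known to push quiescent stem cells into division. PIpC is a synthetic double-stranded RNA that elicits type I interferon, and Mx1-cre is driven by the promoter of Mx1, itself an interferon response gene, so the design uses this pathway to delete the floxed alleles.

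Promoter stretches from RefSeq (build GRCm38.p6) are shown for 8 genes that the results turn on or that carry the signal, to let the shared elements be seen. Each is printed 5′ to 3′ on the gene's own strand and ends before the start of transcription, with capitals for the letters of the element. For the first 7 the element is GAAA, any pair of bases and GAAA again, the interferon-stimulated response element, searched on both strands, where overlapping matches run together and a match on the opposite strand reads as TTTC repeats. For Irf1 it is TTCNNNGAA, the gamma-activated site. The places are chr4:156200850-156200921 (minus strand) for Isg15, chr19:34640760-34640838 (plus) for Ifit1, chr5:120907526-120907570 (minus) for Oas1a and chr5:120887614-120887656 (minus) for Oas1g. The others are chr1:174031855-174031914 (minus) for Ifi205, chr3:142559974-142560039 (plus) for Gbp3, chr10:128270251-128270310 (plus) for Stat2 and chr11:53769899-53769957 (plus) for Irf1.
Isg15: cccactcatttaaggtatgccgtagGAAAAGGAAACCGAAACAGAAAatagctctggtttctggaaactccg
Ifit1: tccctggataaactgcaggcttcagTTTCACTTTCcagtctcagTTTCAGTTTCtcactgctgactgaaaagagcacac
Oas1a: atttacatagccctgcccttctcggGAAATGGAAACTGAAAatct
Oas1g: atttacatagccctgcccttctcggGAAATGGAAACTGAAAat
Ifi205: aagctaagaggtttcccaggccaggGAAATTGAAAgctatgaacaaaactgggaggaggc
Gbp3: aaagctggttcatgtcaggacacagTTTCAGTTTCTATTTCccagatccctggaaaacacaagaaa
Stat2: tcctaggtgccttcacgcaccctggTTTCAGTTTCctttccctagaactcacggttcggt
Irf1: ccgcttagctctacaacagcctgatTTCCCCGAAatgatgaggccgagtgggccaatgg

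A promoter here is the window from 250 bases before to 50 bases after the start, and RefSeq lists one for 37 of the 47 genes. The table has no entry for Mx1, Mx2, Oas2, Usp18, Rtp4, Dhx58, Ifi204, Parp9, Parp14 and Zbp1. The interferon-stimulated response element was matched in 18 of the 37 genes (48.6%), against 1079 of 27025 genes in the table (3.99%). The gamma-activated site was matched in 9 of the 37 (24.3%), against 9.55% of all genes. Oas1a and Oas1g, neighbouring copies of one gene, have the same letters over the element, while Isg15 has 3 overlapping matches and Gbp3 has 2. A match is a description of letters in this window and not a measured binding site.

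**Figure D1:**
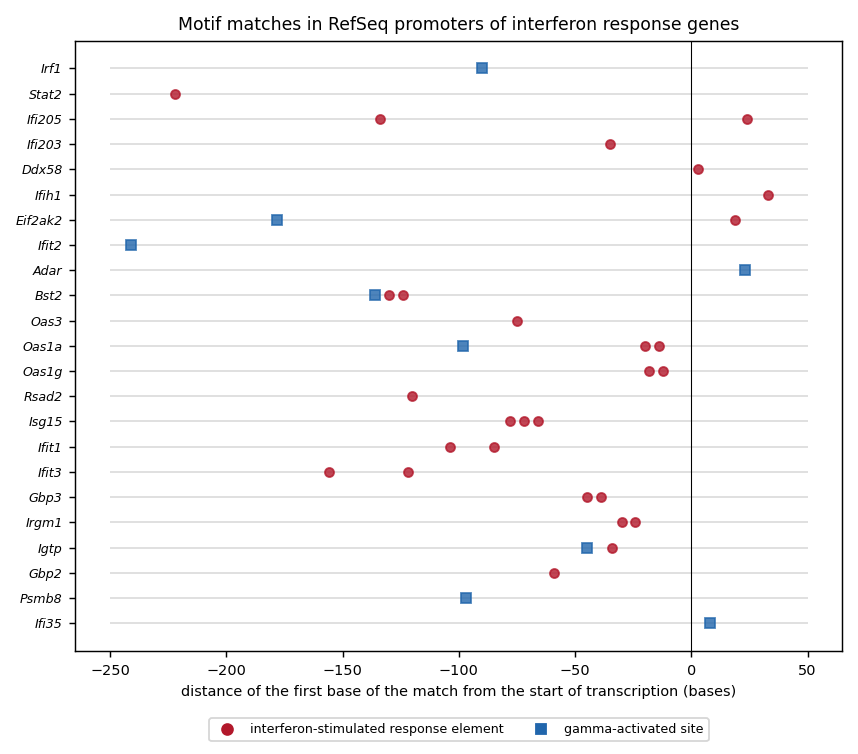
Position of each match to the interferon-stimulated response element (circles) and to the gamma-activated site (squares), as the distance of its first base from the start of transcription, in the 23 genes with at least 1 match. Lines span the window from 250 bases before to 50 after the start, and matches of the first element stand in 18 genes.

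Before any comparison, 3 features of the libraries bear on these genes. Xist, the RNA of the inactive X chromosome, stood at 637 ± 28.0 FPKM in control and at 548 ± 68.3 with both lesions, against 0.680 ± 0.361 in Smc3 del/+ and 0.233 ± 0.132 in Flt3-ITD (SD, n = 2 each), so the single-lesion groups differ from the other groups in this marker of sex as well as in genotype, and only controls lack Mx1-cre. FPKM is the fragment count divided by transcript length and by the library's mapped fragments, so levels of different genes can be compared. Smc3 itself was at 112 to 119 FPKM in controls, 133 to 135 in Smc3 del/+, 89.9 to 94.7 in Flt3-ITD, and 103 and 136 with both lesions, which does not separate the libraries labelled with the deletion. Kit was between 37.4 and 60.1 FPKM in all 8, and Flt3 was at 14.3 and 7.92 with both lesions and at 3.64 to 5.81 elsewhere. All 7 progenitor markers were above 0 in each library, with a summed level of 421 to 551 FPKM. Depth in reads is unknown from FPKM; combined replicate 2 had 11076 genes listed at 0, against 8878 to 9907 in the others.

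The genes covered a wide range of levels. By mean over the 8 libraries the 5 most abundant were Sp100, a nuclear body protein (184 FPKM), Samd9l, a growth-restraining antiviral factor (103), Ifi205 and Ifi203, DNA-binding proteins of the interferon-inducible HIN family (56.7 and 38.0), and Lgals3bp, a secreted galectin-binding glycoprotein (34.9). The place of Ifi205 comes from the combined group, since its mean in control was 19.7 FPKM, under those of Lgals3bp (58.7) and Ifi203 (36.4). The classical antiviral effectors were low, with Isg15, a ubiquitin-like protein added to other proteins, at 1.63 FPKM and Mx1, a GTPase that traps viral ribonucleoproteins, at 1.54. Of the 47 genes, 43 had a mean of at least 1 FPKM and were tested. The 4 left out were Ifi44 (0 to 2.13 FPKM), Usp18, which strips Isg15 from proteins (0 to 2.34), Ifit3 (0 to 0.864) and Mx2 (0 to 0.546). Each of these 4 was highest in a combined library. Of the 43 tested genes, 32 were at 1 FPKM or more in every library, and 10 had a group mean under 1 FPKM in at least 1 group. Mx1 and Ifit1 reached the level for a test only through the combined group, with means over the other 6 libraries of 0.560 and 0.842 FPKM. Their higher values in that group are therefore given as a description, and counts and medians over the 43 genes include them.

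**Figure D2:**
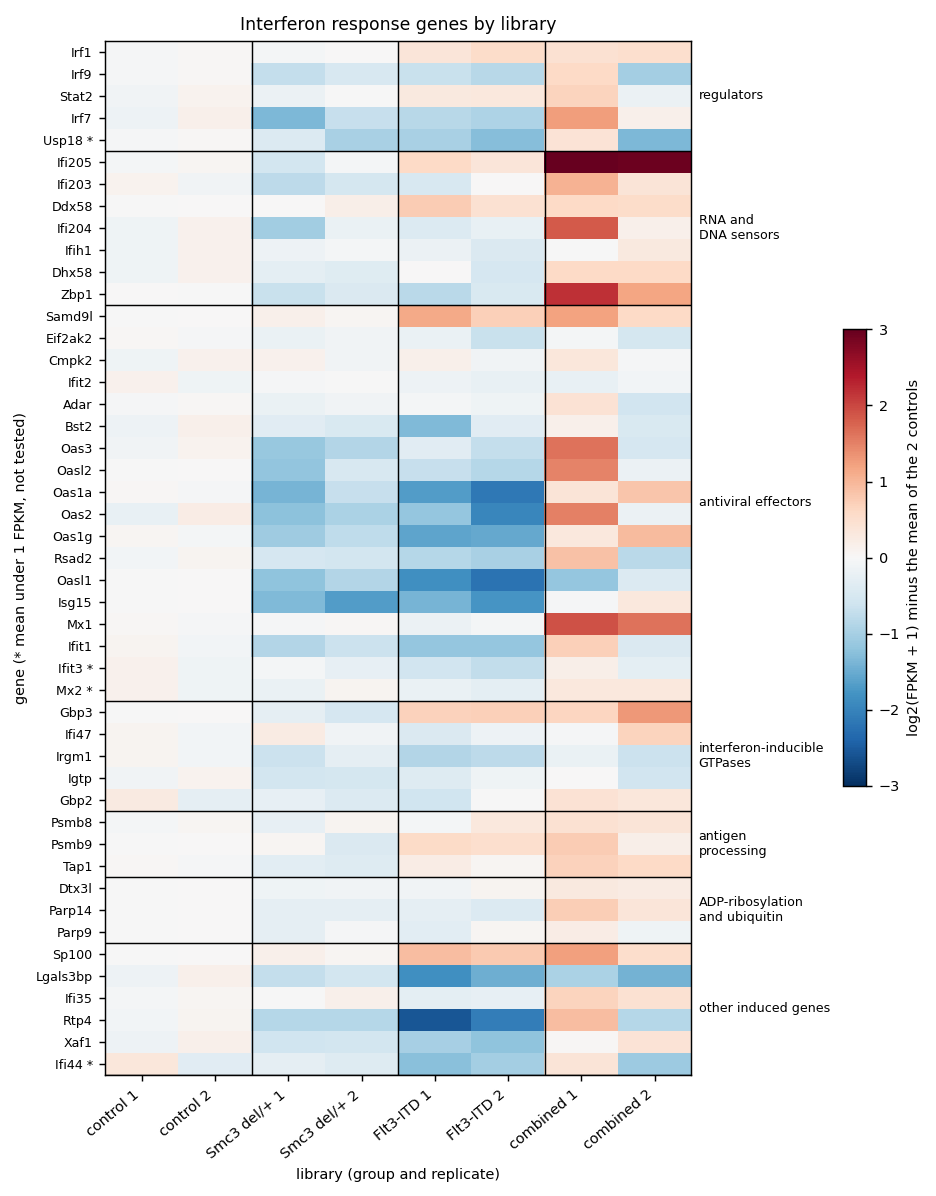
Level of all 47 genes in each library as log2(FPKM + 1) minus the mean of the 2 controls, with genes (rows) grouped by role and libraries (columns) by group. Both Ifi205 cells of the combined group are the darkest red, many antiviral effectors are blue in Smc3 del/+ and Flt3-ITD, and combined replicate 1 is redder than replicate 2.

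Among the regulators, Irf1, the transcription factor most tied to interferon gamma, measured 15.0 and 15.6 FPKM in control, 14.6 and 15.5 with Smc3 del/+, 19.8 and 22.8 with Flt3-ITD, and 21.4 and 21.9 with both lesions. All 4 libraries with Flt3-ITD stood above all 4 without it. Irf7, which amplifies type I interferon output, measured 3.88 and 5.05 FPKM in control, 1.14 and 2.39 with Smc3 del/+, 2.04 and 1.88 with Flt3-ITD, and 11.9 and 5.03 with both lesions. The lowest control and combined values thus lay above every Smc3 del/+ and Flt3-ITD value. Irf9 and Stat2, subunits of the complex that binds the interferon-stimulated response element, ranged from 7.69 to 25.7 and from 7.01 to 13.5 FPKM, and each had its highest value in combined replicate 1.

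Among the sensors, Ifi205 measured 18.8 and 20.5 FPKM in control, 13.1 and 18.7 with Smc3 del/+, 30.1 and 25.4 with Flt3-ITD, and 169 and 158 with both lesions. Neither combined library came near any other library, and Flt3-ITD stood above both groups without the duplication. Zbp1, a sensor of Z-form nucleic acids that can trigger necroptosis, measured 2.45 and 2.37 FPKM in control, 1.16 and 1.54 with Smc3 del/+, 0.934 and 1.47 with Flt3-ITD, and 14.5 and 6.70 with both lesions. Ddx58, which encodes the RNA sensor RIG-I, measured 10.2 and 10.3 FPKM in control, 10.4 and 11.7 with Smc3 del/+, 17.9 and 14.3 with Flt3-ITD, and 15.996 and 15.4 with both lesions. Zbp1 therefore split controls and combined from the rest, while Ddx58 split carriers of Flt3-ITD from the rest. Ifih1, which encodes the RNA sensor MDA5, stayed within 7.53 to 13.2 FPKM.

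Among the effectors, Isg15 measured 2.74 and 2.75 FPKM in control, 0.506 and 0.169 with Smc3 del/+, 0.416 and 0.105 with Flt3-ITD, and 2.65 and 3.68 with both lesions. Oas1a, a synthase of the oligoadenylates that switch on RNase L, measured 5.31 and 5.02 FPKM in control, 1.34 and 2.80 with Smc3 del/+, 0.920 and 0.404 with Flt3-ITD, and 7.01 and 9.90 with both lesions. Its neighbour Oas1g measured 2.69 and 2.41 FPKM in control, 0.692 and 1.09 with Smc3 del/+, 0.185 and 0.221 with Flt3-ITD, and 3.44 and 5.82 with both lesions. In all 3 genes the control and combined libraries lay above every library of the single-lesion groups. Oasl1, a related protein that represses Irf7 translation, measured 3.96 and 4.12 FPKM in control, 1.18 and 1.76 with Smc3 del/+, 0.403 and 0.0884 with Flt3-ITD, and 1.25 and 2.82 with both lesions, so that the combined group overlapped Smc3 del/+ and not control. Mx1 measured 0.634 and 0.566 FPKM in control, 0.558 and 0.638 with Smc3 del/+, 0.419 and 0.546 with Flt3-ITD, and 5.03 and 3.94 with both lesions. Mx1 was thus under 1 FPKM in 6 libraries and above it only in the combined ones. Samd9l measured 69.0 and 69.1 FPKM in control, 76.8 and 71.5 with Smc3 del/+, 153 and 115 with Flt3-ITD, and 162 and 105 with both lesions, with every Flt3-ITD carrier above every other library.

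Among the GTPases and antigen-processing genes, Gbp3, a guanylate-binding protein, measured 11.6 and 11.8 FPKM in control, 9.46 and 7.88 with Smc3 del/+, 19.5 and 19.8 with Flt3-ITD, and 18.9 and 30.3 with both lesions. Irgm1, an immunity-related GTPase that acts on membranes and in autophagy, measured 14.7 and 12.97 FPKM in control, 8.52 and 11.3 with Smc3 del/+, 7.09 and 7.52 with Flt3-ITD, and 11.8 and 8.48 with both lesions. The 2 GTPases went opposite ways in Flt3-ITD, Gbp3 above and Irgm1 below control. Tap1, the peptide transporter for class I antigen, measured 18.6 and 17.5 FPKM in control, 14.3 and 13.5 with Smc3 del/+, 21.1 and 18.7 with Flt3-ITD, and 29.6 and 27.7 with both lesions. Psmb9, a subunit of the immunoproteasome, measured 16.8 and 17.3 FPKM in control, 17.8 and 12.4 with Smc3 del/+, 25.7 and 24.6 with Flt3-ITD, and 29.4 and 19.3 with both lesions. Both antigen-processing genes had their lowest value in a Smc3 del/+ library.

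Of the remaining named members, Sp100 measured 126 and 129 FPKM in control, 141 and 132 with Smc3 del/+, 241 and 220 with Flt3-ITD, and 299 and 184 with both lesions. Lgals3bp measured 52.3 and 65.1 FPKM in control, 35.3 and 39.3 with Smc3 del/+, 15.5 and 20.6 with Flt3-ITD, and 30.0 and 21.3 with both lesions. These genes separated the carriers of Flt3-ITD from the rest in opposite directions, without overlap. Rtp4, a receptor-transporting chaperone, measured 4.63 and 5.32 FPKM in control, 2.29 and 2.32 with Smc3 del/+, 0 and 0.415 with Flt3-ITD, and 10.4 and 2.29 with both lesions. Xaf1, a factor that promotes cell death, measured 2.66 and 3.59 FPKM in control, 1.70 and 1.81 with Smc3 del/+, 1.06 and 0.778 with Flt3-ITD, and 3.20 and 4.47 with both lesions. For Rtp4 and Xaf1 the Flt3-ITD libraries were the lowest of the 8.

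Several genes of less weight in the tests fill out the pattern. Ifit1, which binds viral RNA ends, measured 1.86 and 1.57 FPKM in control, 0.484 and 0.726 with Smc3 del/+, 0.204 and 0.209 with Flt3-ITD, and 3.47 and 1.02 with both lesions. Parp14, an ADP-ribosyltransferase, measured 11.1 and 11.3 FPKM in control, 9.12 and 9.12 with Smc3 del/+, 9.10 and 8.15 with Flt3-ITD, and 19.3 and 14.6 with both lesions. Both genes put all control and combined libraries above the rest. The oligoadenylate synthases Oas2, Oas3 and Oasl2 ranged from 0.400 to 14.5, from 1.70 to 17.5 and from 1.55 to 15.1 FPKM, and Rsad2, which encodes the antiviral enzyme viperin, from 0.802 to 5.47. Each of these 4 peaked in combined replicate 1. Dhx58, a regulator of RNA sensing, Psmb8 of the immunoproteasome, the ubiquitin ligase Dtx3l, the GTPase Gbp2 and Ifi35 were highest in both combined libraries, at 8.44 and 8.51, 39.2 and 37.7, 31.7 and 30.5, 6.08 and 5.63, and 7.04 and 6.002 FPKM. The most even genes included Ifit2 (9.89 to 12.9 FPKM), Cmpk2, a mitochondrial nucleotide kinase (16.1 to 22.6), and Parp9, the partner of Dtx3l (8.05 to 12.1). Adar, which edits double-stranded RNA, and Eif2ak2, the kinase PKR that halts translation, ranged from 7.16 to 15.2 and from 18.8 to 31.3 FPKM, and the GTPases Ifi47 and Igtp from 11.1 to 25.2 and from 3.75 to 6.62. These ranges are narrow beside those of the synthases.

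**Figure D3:**
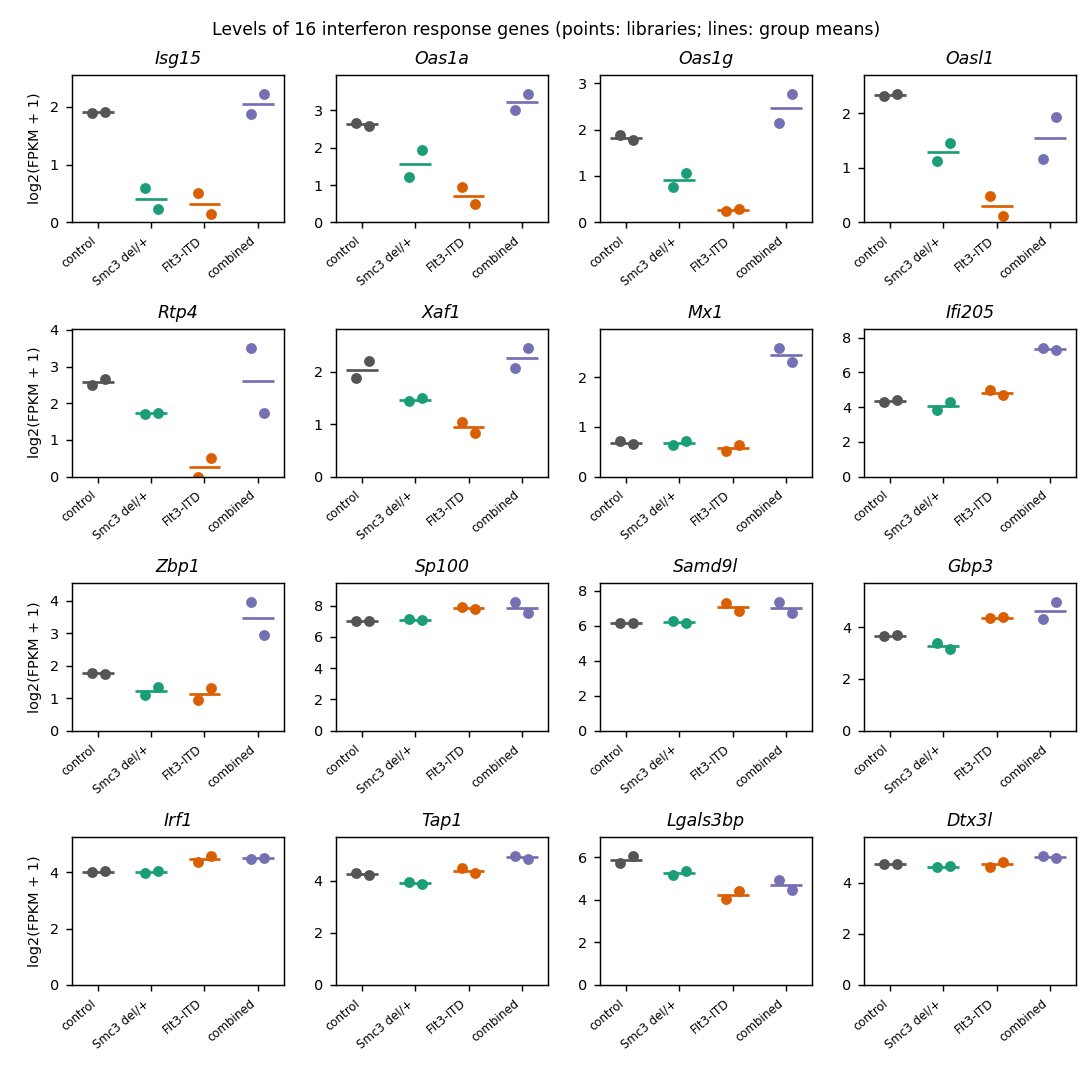
Level of 16 of the genes as log2(FPKM + 1), with 1 point per library and a line at each group mean, in the 4 groups on the horizontal axis. Isg15, Oas1a and Oas1g are high in control and combined, Ifi205 and Mx1 are high in combined alone, and Sp100, Samd9l and Irf1 are high in both groups with Flt3-ITD.

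Several of these genes have close copies, so that values may be shared between them by the counting. Of the 50-base windows in the longest annotated transcript, 57.6% of Oas1a were found in Oas1g and 54.1% of Oas1g in Oas1a. For Ifit3 51.2% were found in Ifit3b, for Ifi204 23.2% in Ifi211, for Rtp4 13.6% in Gm45338, and for Igtp 12.3% in Irgm2. Over all other genes together the share was 30.2% for Ifi204, 10.7% for Ifi203 and 8.67% for Sp100. The values of Oas1a, Oas1g, Ifit3 and Ifi204 are uncertain for that reason. Mx1 shared 4.77% of its windows with Mx2, and Ifi205 shared 0.186% with any other gene.

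In Smc3 del/+ against control, most interferon response genes were lower, but none passed the test (0 of 43; over all genes 1 of 10854 passed, 0.00921%, which was Xist). Of the genes that were lower without overlap, Isg15, Oas1a and Oasl1 had the smallest p. Their log2 fold changes were -1.50 ± 0.280, -1.05 ± 0.308 and -1.04 ± 0.322 (SE), with limma adjusted p of 0.440, 0.796 and 0.818. In each of the 3 genes both Smc3 del/+ libraries lay below both controls. All fold changes are of log2(FPKM + 1), and so are too small for low genes. A value below 0 was found for 37 of 43 genes, against 49.7% of all genes, and the median was -0.36 against 0.00 for all genes. Libraries did not overlap in 29 genes that were lower, against 23.2% of all genes, and in 3 that were higher, against 24.2%. These 3, Ddx58, Sp100 and Samd9l, had log2 fold changes of 0.10 each with adjusted p of 1. They turned negative in the table the authors rescaled (-0.30, -0.24 and -0.25) and with equal spike-in totals, where the median of all genes also moved, to -0.38 and -0.34. An unadjusted p under 0.05 was found for 8 of 43 genes, against 4.55% of all genes. By role, 14 of 16 tested effectors were below 0 (median -0.64), as were all 4 regulators and all 3 antigen-processing genes (medians -0.35 and -0.19). Markers of other lineages were lower in the same comparison: megakaryocyte markers summed to 198 and 203 FPKM in control and to 70.7 and 79.7 with Smc3 del/+, and B cell markers to 86.4 and 215 against 36.2 and 52.1. All 7 megakaryocyte, 9 B cell and 10 erythroid markers had values below 0 (medians -1.08, -1.35 and -0.34) and none passed, with an unadjusted p under 0.05 in 5, 8 and 0. Their part in the values of the interferon response genes was not tested.

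In Flt3-ITD against control the genes went both ways. Many of the low antiviral effectors and the abundant Lgals3bp were lower, while the abundant Sp100 and Samd9l were higher. Of 43 genes, 8 fell and 3 rose at an adjusted p under 0.05 (25.6%, against 18.0% of all genes, 9.50% lower and 8.51% higher). Among effectors, Oasl1, Oas1a, Isg15 and Oas1g fell by 2.03 ± 0.322, 1.91 ± 0.308, 1.58 ± 0.280 and 1.56 ± 0.284 on the log2 scale (limma adjusted p = 0.00748, 0.00789, 0.0108 and 0.0120). Rtp4, Lgals3bp and Xaf1 fell by 2.33 ± 0.518, 1.65 ± 0.214 and 1.10 ± 0.248 (adjusted p = 0.0230, 0.00403 and 0.0241), and the GTPase Irgm1 fell by 0.83 ± 0.209 (adjusted p = 0.0332). The 3 that rose were Samd9l by 0.93 ± 0.222, Sp100 by 0.85 ± 0.215 and Ddx58 by 0.60 ± 0.162 (adjusted p = 0.0282, 0.0337 and 0.0415). No Flt3-ITD library overlapped a control in any of these 11 genes. The median over the 43 genes was -0.31, against -0.01 over all genes, and 32 genes had values below 0, against 50.7% of all genes. Libraries did not overlap in 27 genes that were lower (35.2% of all genes) and 9 that were higher (34.3%), and 14 of the 16 tested effectors were below 0.

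These calls depend on scale and on single libraries. With the rescaled table and with equal spike-in totals, no gene of the 43 rose and 29 and 19 fell. On these scales the median of all genes was -0.58 and -0.50, and the share of all genes called is not given here. The 29 and 19 therefore cannot be set against all genes. The 3 rises hold relative to the other genes of the library and not on the scale set by spike-in RNA. Without either control library 1 gene fell and none rose, and without either Flt3-ITD library 4 and 2 fell and none rose. Without either Smc3 del/+ library 5 fell and none rose, and without either combined library 15 fell and 6 rose, a setting in which 39.0% of all genes were called. Lgals3bp passed in all 8 of these fits.

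Lineage markers differ between the same groups. Summed erythroid markers were at 1813 to 2141 FPKM in the 4 libraries without Flt3-ITD and at 55.2 to 609 in the 4 carriers, and all 10 of these markers fell in Flt3-ITD against control. B cell markers summed to 36.2 to 215 FPKM against 5.32 to 12.6. Monocyte markers went the other way, at 149 to 208 FPKM against 312 to 577. Markers of plasmacytoid dendritic cells, the main makers of type I interferon, summed to 14.3 and 18.2 FPKM in Flt3-ITD and to 26.5 to 37.7 in the other 6 libraries. Siglech, a defining gene of that list, was listed at 0 in both Flt3-ITD libraries and was 0.518 to 1.03 elsewhere. The list also holds Bst2, a member here (2.96 and 6.91 FPKM in Flt3-ITD, 6.29 to 10.1 elsewhere). Macrophage markers summed to 90.8 to 122 FPKM, but 6 of the 9 tested fell and 1 rose in Flt3-ITD against control. In that comparison all 7 megakaryocyte markers fell and 4 of 8 neutrophil markers rose. In bulk samples fewer cells of a type and less RNA per cell cannot be told apart, and the part of these cells in the results was not tested.

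Adding the Smc3 deletion to Flt3-ITD, the question of the combined group against Flt3-ITD, came with higher values of many interferon response genes. Of 43 genes, 4 rose and 0 fell (9.30%, against 0.286% of all genes, 0.240% higher and 0.0461% lower), and 22 had an unadjusted p under 0.05, against 11.0% of all genes. Ifi205 rose by 2.52 ± 0.184 on the log2 scale, Oas1a by 2.51 ± 0.308, Oas1g by 2.19 ± 0.284 and Mx1 by 1.88 ± 0.249 (limma adjusted p = 0.00463, 0.0337, 0.0352 and 0.0371). Of these 4, Mx1 entered the test only through its combined libraries, and its call is no support. A value above 0 was found for 38 of the 43 genes, against 50.1% of all genes, and the median was 0.69 against 0.00. In 27 genes both combined libraries lay above both Flt3-ITD libraries, against 17.1% of all genes, and in 0 below. The reverse of that order held for 16.8% of all genes. By role, the median was 1.17 over 16 effectors, 0.94 over 7 sensors, 0.28 over 4 regulators and 0.29 over 3 antigen-processing genes. Zbp1 and Isg15, with values of 2.32 ± 0.342 and 1.72 ± 0.280, did not pass (adjusted p = 0.0588 and 0.0788). Erythroid markers were also higher in the combined group, with a median of 1.62 over 10 genes of which none passed, and the groups differ in Xist.

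The combined libraries differ from each other more than those of any other group, with an SD of the replicate difference over the 43 genes of 0.749 on the log2 scale against 0.184 to 0.347. This holds over all genes too, with an SD of 0.701 against 0.350 to 0.409. Replicate 1 was the higher in 32 of 43 genes and replicate 2 in 11. Replicate 1 was more than 2-fold above replicate 2 on the FPKM + 1 scale in 10 of 43 genes (Irf7, Irf9, Zbp1, Ifi204, Ifit1, Oas2, Oas3, Oasl2, Rsad2 and Rtp4), against 6.94% of all genes, and in 0 the other way, against 5.06%. No gene of the 43 differed that much between the replicates of another group, where 0.258% to 1.01% of all genes did in each direction. Oas3, for instance, was at 17.5 and 3.19 FPKM, and Irf9 at 25.7 and 7.69. Without combined replicate 1, 18 genes passed (29.9% of all genes were called), and without replicate 2, 16 did (1.02% of all genes). Each of these fits has a single combined library and takes its spread from the other groups. The difference between the combined libraries does not enter, so a pass in them is no support. Leaving out Flt3-ITD replicate 2 left no gene past the threshold, and leaving out any of the other 5 libraries left 1, which was Ifi205. The calls of Oas1a, Oas1g and Mx1 were thus lost without any control, Smc3 del/+ or Flt3-ITD library, while the 4 values stayed above 0.

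Against control, which shares its high Xist but lacks Mx1-cre, the combined group had 7 genes that rose and 1 that fell (18.6%, against 11.8% of all genes, 5.41% higher and 6.38% lower). The sensors Ifi205 and Zbp1 rose by 2.99 ± 0.184 and 1.68 ± 0.342, and Mx1, tested only through this group, rose by 1.77 ± 0.249 (limma adjusted p = 0.00176, 0.0229 and 0.00733). Gbp3, Samd9l, Sp100 and Tap1 rose by 0.98 ± 0.221, 0.91 ± 0.222, 0.88 ± 0.215 and 0.63 ± 0.137 (adjusted p = 0.0319, 0.0395, 0.0398 and 0.0272). Lgals3bp fell by 1.18 ± 0.214 (adjusted p = 0.0160), while Oasl1 and Irgm1, at -0.78 and -0.43, did not pass and had no overlap with control. Libraries did not overlap in 20 genes that were higher (25.8% of all genes) and 4 that were lower (26.8%). The median of the 43 genes was 0.42, against -0.01 for all genes. With the rescaled table and equal spike-in totals that median turned to -0.28 and -0.21, with all genes at -0.67 and -0.64. On these scales Tap1 turned to -0.080 and -0.042, while 3 genes still rose. The share of all genes called there is not given here. Without either control library 1 gene rose, and without combined replicate 2, 22 did, in a fit that called 31.6% of all genes.

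Relatives of Ifi205 were higher in the combined group as well, by unlike amounts. Ifi205 lies in a cluster of related HIN genes on chromosome 1, in the annotated order Ifi207, Ifi204, Mndal, Ifi211, Ifi203, Ifi202b and Ifi205 among others. Mnda, the file's symbol for Ifi211, measured 16.2 and 17.5 FPKM in control, 7.69 and 14.7 with Smc3 del/+, 23.6 and 21.3 with Flt3-ITD, and 128 and 101 with both lesions, and rose by 2.30 ± 0.267 in combined against Flt3-ITD (limma adjusted p = 0.0337). AI607873, the symbol for Ifi207, singled out with its levels known, measured 2.61 and 3.74 FPKM in control, 2.20 and 3.33 with Smc3 del/+, 2.49 and 1.44 with Flt3-ITD, and 17.1 and 12.1 with both lesions, and rose by 2.40 ± 0.293 (adjusted p = 0.0337). The members Ifi203 and Ifi204 of the same cluster did not pass in that comparison, with 75.6 and 47.4 FPKM for Ifi203 and 35.3 and 10.3 for Ifi204 in the combined group. Ifi203 was at 25.9 and 36.6 FPKM in Flt3-ITD and Ifi204 at 6.59 and 7.65. In control they were at 38.9 and 33.9 and at 8.22 and 9.98 FPKM, close to combined replicate 2. Mndal and the listed paralog Aim2 did not pass in combined against Flt3-ITD, at 1.22 ± 0.192 and 0.26 ± 0.166 (limma adjusted p = 0.0709 and 0.561). Since 23.2% of the windows of Ifi204 are found in Ifi211, the values of Ifi204 and Mnda may be partly shared.

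**Figure D4:**
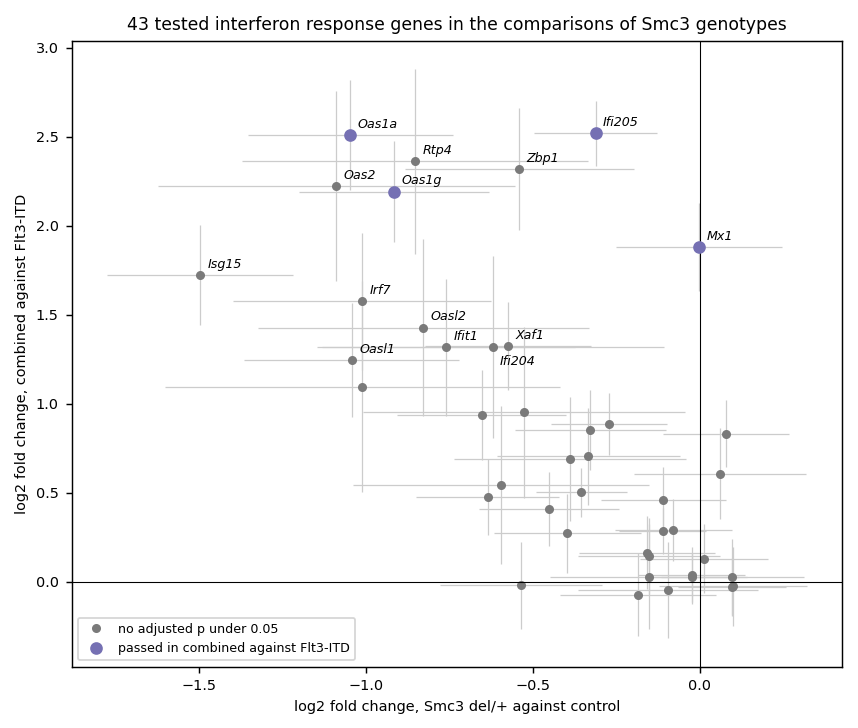
Log2 fold change of the 43 tested genes in Smc3 del/+ against control (horizontal) and in combined against Flt3-ITD (vertical), with 1 SE as bars; the comparisons share no library. Genes stand mostly left of 0 on the horizontal axis (37 of 43) and above 0 on the vertical one (38 of 43), and the 4 larger points passed the test in combined against Flt3-ITD.

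Whether the Smc3 deletion acts differently with and without Flt3-ITD is asked by the interaction. Its value was above 0 for 40 of 43 genes, against 49.3% of all genes, with a median of 1.08 against -0.01. One gene passed, Ifi205 at 2.83 ± 0.260 (limma adjusted p = 0.0184; 2.33% of the members, against 0.0369% of all genes, which is 4 genes in all with Xist among them). Oas1a and Isg15, at 3.56 ± 0.435 and 3.22 ± 0.396, did not pass (adjusted p = 0.0717 each), and 23 of 43 genes had an unadjusted p under 0.05, against 9.30% of all genes. The 43 include Mx1 and Ifit1, tested only through the combined group. They also include Isg15 and Oas1g, with means under 1 FPKM in both single-lesion groups. Control and combined libraries have the positive sign in this contrast, so these genes are no support in its counts and median. Ddx58, Samd9l and Sp100 were at -0.13, -0.13 and -0.07 and did not pass. With the rescaled table and with equal spike-in totals 5 genes passed, given without the share of all genes called on these scales. Without either control or either Flt3-ITD library 0 passed, and Ifi205 then ranged within 2.59 to 3.07 over all alternatives run.

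This contrast sets control and combined against the single-lesion groups, which is also the split in Xist, so interaction and sex cannot be told apart. All 4 control and combined libraries lay above all 4 others in 11 of 43 genes (25.6%, against 1.01% of all genes): Irf7, Zbp1, Ifi204, Isg15, Ifit1, Oas1a, Oas1g, Oas2, Oasl2, Parp14 and Xaf1. The opposite order was seen in 0 of 43, against 0.949% of all genes. Of the 11 genes, Ifit1 was tested only through the combined group. Isg15 and Oas1g had means under 1 FPKM in both single-lesion groups, so they were tested only through control and combined libraries. The places of Ifit1, Isg15 and Oas1g in the count are therefore no support. Markers of other lineages moved along: all 10 erythroid and all 9 B cell markers had interaction values above 0 (medians 1.89 and 2.01), and none passed. Their part in these values was not tested.

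The averaged effect of Flt3-ITD, over 4 carriers and 4 other libraries, is balanced for Xist. It is not balanced for Mx1-cre, which all carriers have and the controls among the other libraries lack. Of 43 genes 8 rose and 1 fell (20.9%, against 23.8% of all genes, 10.9% higher and 12.8% lower), a share near that of all genes. Ifi205 rose by 1.89 ± 0.498 and Gbp3 by 1.04 ± 0.187, followed by Samd9l at 0.87 ± 0.151 and Sp100 at 0.81 ± 0.146 (limma adjusted p = 0.0268, 0.00690, 0.00604 and 0.00678). The value of Ifi205 averages unlike changes. Its means were 19.7 FPKM in control and 27.8 in Flt3-ITD, but 15.9 in Smc3 del/+ and 164 with both lesions. Psmb9, Tap1, Ddx58 and Irf1 rose by 0.59 ± 0.158, 0.56 ± 0.174, 0.53 ± 0.113 and 0.48 ± 0.0956 (adjusted p = 0.0276, 0.0472, 0.0123 and 0.0103). Lgals3bp fell by 1.10 ± 0.238 (adjusted p = 0.0136). None of the other effectors passed: Isg15, Oas1a and Oas1g had values of 0.03, -0.13 and -0.01, with SE of 0.583, 0.641 and 0.565. These values average opposite changes. In Flt3-ITD against control the genes were at -1.58, -1.91 and -1.56. Their combined means of 3.17, 8.46 and 4.63 FPKM lay above the Smc3 del/+ means of 0.338, 2.07 and 0.893. Under the rescaled table and equal spike-in totals, where all genes had medians of -0.44 and -0.41, 2 genes rose and 4 and 5 fell. These counts are given without the share of all genes called on the same scales. Leaving out 1 library at a time, Samd9l, Sp100, Gbp3, Irf1 and Ddx58 passed in all 8 fits. The call of Tap1 held only without Flt3-ITD replicate 2, and that of Psmb9 only without Smc3 del/+ replicate 1 or combined replicate 2. The call of Ifi205 was lost without either Smc3 del/+ library or combined replicate 1, and that of Lgals3bp without control replicate 1.

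**Figure D5:**
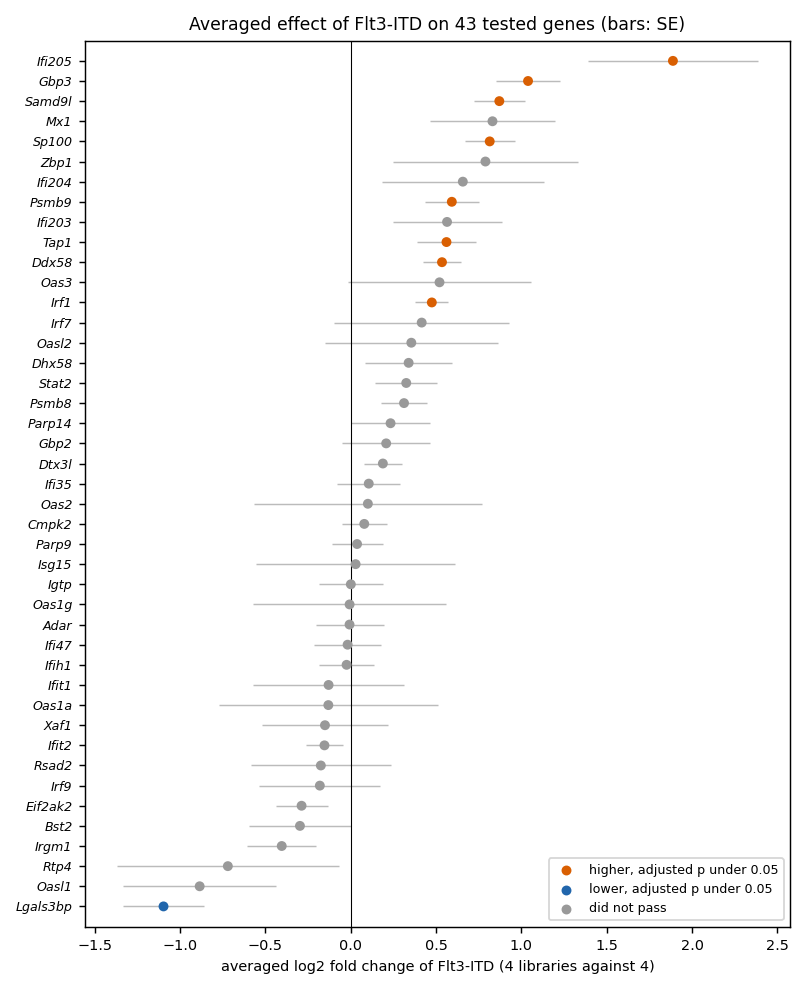
Averaged log2 fold change of Flt3-ITD (4 libraries against 4) for each of the 43 tested genes, with bars for 1 SE. The 8 genes that rose stand right of 0 in orange, Lgals3bp stands at the left end in blue, and Oas1a, Oas1g, Oas2 and Isg15 stand near 0 with wide bars.

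Flt3-ITD against Smc3 del/+, a comparison added after the values were seen, sets against each other the groups that both carry Mx1-cre and both have low Xist. Here 2 genes rose and 1 fell (6.98%, against 9.15% of all genes, 3.81% higher and 5.34% lower). Gbp3 rose by 1.10 ± 0.221, Ifi205 rose by 0.78 ± 0.184 and Lgals3bp fell by 1.02 ± 0.214 (limma adjusted p = 0.0261, 0.0424 and 0.0305). Samd9l at 0.83, Oasl1 at -0.99 and Rtp4 at -1.47 did not pass and had no overlap. The members were split evenly, 22 above and 21 below 0 (48.5% and 51.5% of all genes), with a median of 0.01 against -0.02. Leaving out any library other than a combined one left no call.

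The averaged effect of the Smc3 deletion called none of the 43 genes and 0 of 10854 in limma (0%). An unadjusted p under 0.05 was found for 2 of the 43, Mx1 at 0.94 ± 0.367 and Ifi35 at 0.45 ± 0.183 (adjusted p = 0.901 each), against 4.84% of all genes. The value for Mx1 comes from the combined group, through which alone it was tested, since its means were 0.600 FPKM in control and 0.598 in Smc3 del/+. The median was 0.11 against 0.01.

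The rest of the pathway was read from lists of genes outside the 47. Of 17 interferon genes in the file, none reached the level for a test. Ifnb1 was listed at 0 in all 8 libraries, and Ifng was at 0.0917 FPKM in control replicate 1 and at 0 in the others. Receptors and signal transducers followed Flt3-ITD: 9 of 18 tested rose and 0 fell in the averaged effect (against 23.8% of all genes, 10.9% higher and 12.8% lower). Irf8, a factor of monocyte and dendritic cell fate that shares the Irf fold, rose by 1.57 ± 0.195, and the receptor subunits Ifngr2 and Il10rb by 0.69 ± 0.125 and 0.52 ± 0.0965 (limma adjusted p = 0.00187, 0.00717 and 0.00781). Of this list none passed in combined against Flt3-ITD, in Smc3 del/+ against control or in the interaction (unadjusted p under 0.05 in 2, 1 and 2 of 18).

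The averaged effect of Flt3-ITD called 23.8% of all genes, 10.9% higher and 12.8% lower. Of the sensor adaptors and kinases 3 of 12 tested genes were higher and 0 lower in it, a share near that of all genes called. These were Tlr3, the endosomal receptor for double-stranded RNA, by 2.01 ± 0.415, Tmem173, which encodes the adaptor STING, by 0.63 ± 0.152, and Tbk1, the kinase that activates interferon regulatory factors, by 0.39 ± 0.104 (limma adjusted p = 0.0113, 0.0193 and 0.0279). Tmem173 was at 10.8 to 13.5 FPKM in the 4 libraries without Flt3-ITD and at 14.6 to 25.04 in carriers. Of 12 class I presentation genes, 2 rose in the same effect (16.7%, against 10.9% of all genes higher and 23.8% called in either direction). They were H2-D1, by 0.63 ± 0.128, and the transporter subunit Tap2, by 0.50 ± 0.130 (limma adjusted p = 0.0105 and 0.0255). None of the 12 passed in combined against Flt3-ITD (unadjusted p under 0.05 in 3).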

How the data were processed

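The authors deposited FPKM values for 8 libraries in 2 tables of 23385 rows, 23293 for mouse genes and 92 for spike-in RNAs; the second table holds FPKM that the authors rescaled, by steps not given in the sources used here. Build mm9, Cufflinks 2.0.0 and TopHat are named in the submitters' processing notes without their roles; annotation and strand setting: not given in the sources used here. All main values come from the table without that rescaling.

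The 10854 genes averaging 1 FPKM or more entered limma 3.58.1 (R 4.3.3) as log2(FPKM + 1), using a variance trend and Benjamini-Hochberg adjustment over all of them at 0.05. Comparisons of groups and the interaction came from a fit of 4 group means (4 residual degrees of freedom), and averaged effects from an additive model (5). With 2 libraries against 2 an exact permutation test cannot go below p = 0.333 (0.0286 with 4 against 4), so calls rest on the model across genes. Replicates are single mice. Same-numbered libraries were not treated as pairs.

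Members and lists were chosen with earlier results of these data known. Per comparison, members with full statistics are up to 8 that passed per direction by smallest p; where fewer than 3 passed, non-overlapping members of smallest p fill up to 3. Promoters are of another build than the FPKM tables and were used for their letters only. Paralogs were compared over 50-base windows of annotated transcripts. The fits were tested on simulated data. Alternatives were 2 other filters, another pseudocount, 3 rescalings, fits on the compared groups alone, a replicate block, no variance trend and leaving out each library. In the fits of group means, leaving out a library leaves a single one in its group. The spread then comes from the other groups.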

Additional observations from a re-analysis of the deposited data

Results flagged for a closer look

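The value of the interaction for Ifi205, 2.83 ± 0.260 on the log2 scale (limma adjusted p = 0.0184), was marked because the Smc3 deletion went with different changes in the 2 Flt3 backgrounds. The log2 fold change was -0.31 ± 0.184 in Smc3 del/+ against control and 2.52 ± 0.184 in combined against Flt3-ITD. Both Smc3 del/+ libraries lay below both controls, and both combined libraries lay above both Flt3-ITD libraries. The interaction runs along the split in Xist, from which it cannot be told apart.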

How the results depend on the processing

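Depth in reads is unknown, n is 2 per group, and genes near 1 FPKM carry many of the values. Of the values of single genes under alternatives, 601 kept direction and side of the threshold, 205 lost and 26 gained the call, and 18 turned sign. In no setting did a gene of the 43 pass in Smc3 del/+ against control or in the averaged effect of the Smc3 deletion, or pass as lower in combined against Flt3-ITD or in the interaction.

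Counts of genes past the threshold that moved by over 1.5 times follow. The cause was not tested except where fewer genes or samples entered by construction. They are given without the shares of all genes called in the same settings, so they show nothing particular to these genes. Without a filter on low values, Flt3-ITD against control had 0 higher, combined against Flt3-ITD 2 higher, combined against control 4 higher, Flt3-ITD against Smc3 del/+ 0 in either direction, and the interaction 0. With a filter at 5 FPKM, 2 were lower in Flt3-ITD against control and 1 higher in combined against Flt3-ITD, where 27 members were tested. A pseudocount of 0.1 left 1 higher in combined against Flt3-ITD. Without the variance trend the interaction had 3 and Flt3-ITD against Smc3 del/+ 1 higher. Fitted on the 2 compared groups alone, Flt3-ITD against control had 7 higher and 14 lower, combined against Flt3-ITD 0, combined against control 1 higher and 0 lower, and Flt3-ITD against Smc3 del/+ 7 higher and 3 lower.

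In the rescaled table and with equal spike-in totals, in that order, Flt3-ITD against control had 0 and 0 higher and 29 and 19 lower, combined against control 3 and 3 higher and 7 and 6 lower, Flt3-ITD against Smc3 del/+ 1 and 1 higher, the interaction 5 and 5 higher, and the averaged effect of Flt3-ITD 2 and 2 higher and 4 and 5 lower. Under the same scales, in Smc3 del/+ against control Ddx58 turned to -0.30 and -0.25, Sp100 to -0.24 and -0.27, and Samd9l to -0.25 and -0.27. In combined against control the members' median turned to -0.28 and -0.21 and Tap1 to -0.080 and -0.042. In the interaction Ddx58 turned to 0.13 and 0.067, Samd9l to 0.048 and 0.082, and Sp100 to 0.10 and 0.14.

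Leaving out 1 library gave 0 to 6 higher and 1 to 15 lower in Flt3-ITD against control, 0 to 18 higher in combined against Flt3-ITD, and 1 to 22 higher and 0 to 5 lower in combined against control. It gave 0 to 8 higher and 0 to 4 lower in Flt3-ITD against Smc3 del/+, 0 to 19 higher in the interaction, and 5 to 8 higher and 0 to 2 lower in the averaged effect of Flt3-ITD. The interaction of Ddx58 turned to 0.026 and that of Samd9l to 0.08 without Flt3-ITD replicate 1. Those of Samd9l and Sp100 turned to 0.18 and 0.28 without combined replicate 2 and were -0.44 and -0.42 without combined replicate 1.

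Deviations of same-numbered libraries correlated at -0.113 to 0.0229, so the numbers are not taken to pair the mice. With the replicate number as a block, 1 gene passed in combined against Flt3-ITD and 0 in the interaction, and no other count moved by over 1.5 times.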

Other observations

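Other genes known to be induced by interferon, outside the 47, were read from a list of 38 in the file, of which 36 were tested. In the averaged effect of Flt3-ITD 8 rose and 3 fell (30.6%, against 23.8% of all genes). Ifitm1, an antiviral membrane protein, measured 12.99 and 14.7 FPKM in control, 8.69 and 4.36 with Smc3 del/+, 72.0 and 101.1 with Flt3-ITD, and 61.0 and 51.0 with both lesions, and rose by 2.76 ± 0.208 (limma adjusted p = 0.000554). Isg20, an exonuclease that degrades RNA, measured 45.9 and 38.2 FPKM in control, 32.4 and 38.5 with Smc3 del/+, 4.44 and 9.19 with Flt3-ITD, and 8.49 and 11.2 with both lesions, and fell by 2.14 ± 0.237 (adjusted p = 0.00148). Both genes separated carriers of Flt3-ITD from the other libraries without overlap, in opposite directions. In combined against Flt3-ITD none of the 36 passed, and 14 had an unadjusted p under 0.05, against 11.0% of all genes. These 14 went both ways: Ly6c1, Ly6c2, Ifitm2 and Ifitm6 were lower, at -0.53, -0.48, -0.47 and -0.62, and the others were higher. The smallest p there belonged to Phf11b at 1.85 ± 0.282, Ifi30 at 1.36 ± 0.221 and Epsti1 at 1.26 ± 0.213 (adjusted p = 0.0686, 0.0788 and 0.0909).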
